A study of Homo sapiens with 6 samples.

Results

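The microRNA locus rows are the rows of a deposited FPKM table (read fragments per unit of transcript length and of sequencing depth) that carry the name of a microRNA gene and hold a value in every library. A row is a member where its name is MIR followed by a digit, or MIRLET, and does not end in HG, the suffix of a microRNA host gene. Members were further selected on their measured FPKM, which had to be above 0 in all 6 libraries. This gave 29 members out of 1601 rows with a microRNA name, in a table of 25365 rows of which 16144 were above 0 in all 6 libraries. The libraries came from a human line of triple-negative breast cancer, MDA-MB-231, harvested 48 h after transfection with 20 nM siRNA by the lipid reagent RNAiMAX. In 3 libraries (si-Control) the cells had received the negative control siRNA AM4611 from Ambion, and in 3 (si-NRDE2-2) a siRNA that targets NRDE2, also from Ambion and listed as s30064. All 6 samples share the parental line and the transfection. The NRDE2 group rests on 1 siRNA sequence, so its effects on other transcripts and the loss of NRDE2 cannot be told apart. Nothing in the labels says that the replicates were separate cultures, and the spread behind each p-value may therefore be technical.

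A microRNA is cut in steps from a long primary transcript. In the nucleus DROSHA and DGCR8 release a hairpin, XPO5 exports it, and in the cytoplasm DICER1 trims it to a mature strand that Argonaute proteins load and use to repress mRNAs. The seed, bases 2 to 8 of the mature strand, does most of the target pairing. Many microRNA hairpins lie inside an intron or an exon of another gene, whose transcript then doubles as the primary transcript. NRDE2 resides in the nucleus as a partner of MTREX, a helicase that serves the nuclear RNA exosome. The libraries were made from poly(A)-selected RNA, in which mature microRNAs, having no poly(A) tail, are not captured as such. A value in a microRNA row is thus read here as fragments of a primary or overlapping transcript and never as a level of the mature microRNA.

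The mature sequences of the rows on which the results turn are shown to tell these loci apart, with the seed in capitals, 5′ to 3′, as RefSeq gives them for GRCh38.p14. Both MIR1244 rows yield the same strand, at chr2:231713368-231713393 for MIR1244-1 and chr5:118974640-118974665 for MIR1244-2, both on the plus strand. The strands of MIR221 (chrX:45746180-45746202, minus strand) and of its neighbour MIR222, a locus outside the rule, share their seed and are shown for that reason. The MIR5047 strand lies at chr17:64501230-64501250 on the minus strand, that of MIR614 at chr12:12915882-12915904 on the plus strand, that of MIR147B at chr15:45433098-45433118 on the plus strand and that of MIR22 at chr17:1713914-1713935 on the minus strand. MIR210 (chr11:568112-568133, minus strand) fell just outside the rule.
hsa-miR-1244: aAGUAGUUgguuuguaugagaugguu
hsa-miR-5047: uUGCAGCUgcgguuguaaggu
hsa-miR-221-3p: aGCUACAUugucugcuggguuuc
hsa-miR-222-3p: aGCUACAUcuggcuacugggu
hsa-miR-614: gAACGCCUguucuugccaggugg
hsa-miR-147b-3p: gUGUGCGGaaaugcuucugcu
hsa-miR-22-3p: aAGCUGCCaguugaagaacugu
hsa-miR-210-3p: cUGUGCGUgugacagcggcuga
RefSeq's table gave a mature strand for 25 of the 29 members, 33 mature names in all. These had 33 distinct seeds, so no seed was shared between differently named mature strands of members. MIR6723, MIR3648, MIR621 and MIR641 are named only.

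The targeted gene matched the labels in every library. NRDE2 stood at 4.39, 4.45 and 3.80 FPKM in the 3 si-Control libraries and at 0.230, 0.234 and 0.229 FPKM with si-NRDE2-2 (log2 fold change -3.70 ± 0.09 SE, limma adjusted p = 1.8e-07, Benjamini-Hochberg over 16144 rows). Of the genes that mark this mesenchymal line, VIM ran from 1113 to 1260 FPKM and CD44, CAV1, AXL, MSN and ANXA1 were all at 148.686 FPKM or more. The hormone receptor genes ESR1 and PGR stayed at or below 0.0044 FPKM, CDH1 at or below 0.445 FPKM, and the leucocyte gene PTPRC at or below 0.0618 FPKM. Among genes listed as low or absent in such cells, EPCAM was at 7.43 to 8.45 FPKM and ERBB2 at 10.3 to 12.9 FPKM, and the leucocyte genes CD3E and LYZ were at or below 0.913 FPKM. Summed FPKM ran from 448986 to 486271 per library.

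Most microRNA rows held no signal. Of the 1601 rows, 1468 were listed at 0 in all 6 libraries and 104 were above 0 in 1 to 5 of them. Loci of microRNAs well known in breast cancer cells were mostly among the rows at 0: MIR21, MIR155, MIR17, MIR31, MIR100 and MIR10B were listed at 0 throughout, and 2 of 11 let-7 rows were above 0 in any library. MIR221, MIR22 and MIR7-1 are members from loci of widely studied microRNAs. Every si-Control library was above 0 and every si-NRDE2-2 library at 0 in 1 row, MIR3662 (chosen after its values were seen), and 0 rows showed the opposite. Of the microRNA rows, 6 were above 0 in exactly 3 libraries. The fragments behind MIR3662 were not worked out, and no such share was computed over all rows. A 0 in this table may be a failed estimate, so a listed 0 is not read as absence.

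Many members lay in exons of other genes. By position in GENCODE release 29, 13 of the 28 members with an entry (46.4%) had at least 50% of the hairpin in an untranslated region (UTR) or coding exon of a gene on the same strand. Another 6 lay in an exon of a non-coding transcript, 7 in an intron, and 2 had no gene on their strand. Among the rows above 0 in 1 to 5 libraries, 25 of 104 (24.04%) lay in a UTR or coding exon, and among the rows at 0 throughout 67 of 1462 (4.58%). The median host row was at 43.6 FPKM for 23 members with such a row, against 17.2 FPKM for 80 of the rows above 0 in some libraries and 7.02 FPKM for 807 of the rows at 0. Annotated hairpins of members had a median of 98 bases, against 80 bases for the rows at 0. These shares describe rows that the rule chose by their values, and they carry no test.

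The FPKM of a hairpin row moves in large steps, because 1 fragment is worth many FPKM on so short a feature. Whole numbers of fragments were recovered from these steps at the 25 hairpin lengths used, from 75 to 164 bases. There, 228 of 261 values above 1 FPKM (87.4%) were whole multiples of the step of their length, within 0.02 of a fragment. Each step was fitted to these same values, as the lowest value of a row divided by a small whole number. Lengths with fewer than 3 whole values were left out. The share therefore describes the fit and is no test of it. In si-Control replicate 1 a single fragment was worth 264 FPKM at 75 bases, 58.4 FPKM at 85 bases, 9.48 FPKM at 110 bases and 1.41 FPKM at 164 bases. The step fell with every longer length used, because lengths that broke this order were left out. FPKM of hairpins of different length therefore cannot be ranked as abundance, and the fragments behind each value are given below beside the FPKM. With si-Control replicate 1 set to 1, the same steps put the depth of the other si-Control libraries at 1.05 and 0.917 and that of the si-NRDE2-2 libraries at 0.947, 0.968 and 0.761, in order of replicate number.

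**Figure D1:**
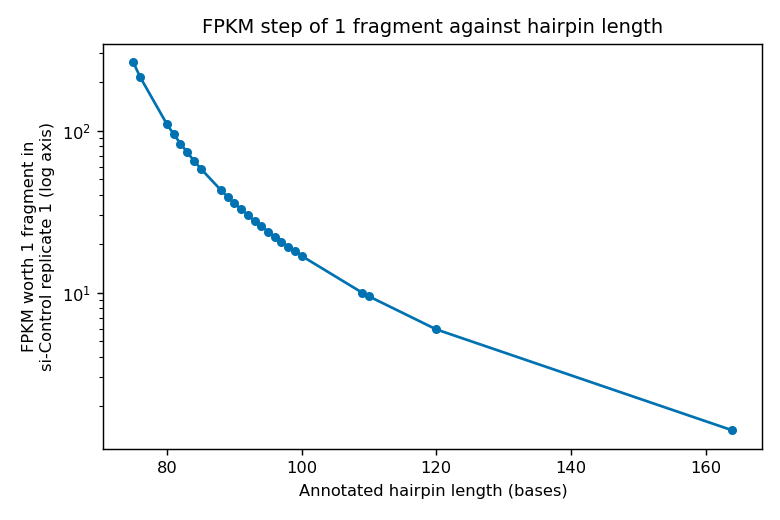
FPKM that 1 fragment is worth in si-Control replicate 1 (log axis) against annotated hairpin length in bases, 1 point for each of 25 lengths. The value falls from 264 FPKM at 75 bases to 1.41 FPKM at 164 bases. Lengths that broke this fall were left out.

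By this measure the 29 members fell into 4 kinds. For MIR671, MIR1248, MIR1307, MIR3614, MIR7844 and MIR3652 the step was read off between neighbouring lengths. For MIR3648 it was fitted to the row's own values, so the kinds of these rows are less certain. In 13 rows all 6 values were whole multiples, and 12 of these never exceeded 20 fragments in any library, 7 of them never 6. In 3 rows the values were not all whole but stood for at least 1 fragment in every library (MIR1244-1, MIR1244-2 and MIR6516). In 8 rows some libraries were under 1 fragment (MIR1182, MIR1248, MIR1307, MIR147B, MIR3614, MIR4800, MIR621 and MIR671), and in 5 rows all were (MIR1181, MIR22, MIR3652, MIR6084 and MIR7844). All 7 intronic members were of the whole-number kind, whereas 10 of the 13 rows under 1 fragment in any library lay in a UTR or coding exon. The rule's requirement of a value above 0 in all 6 libraries is thus met by rows with far less than 1 fragment.

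**Figure D2:**
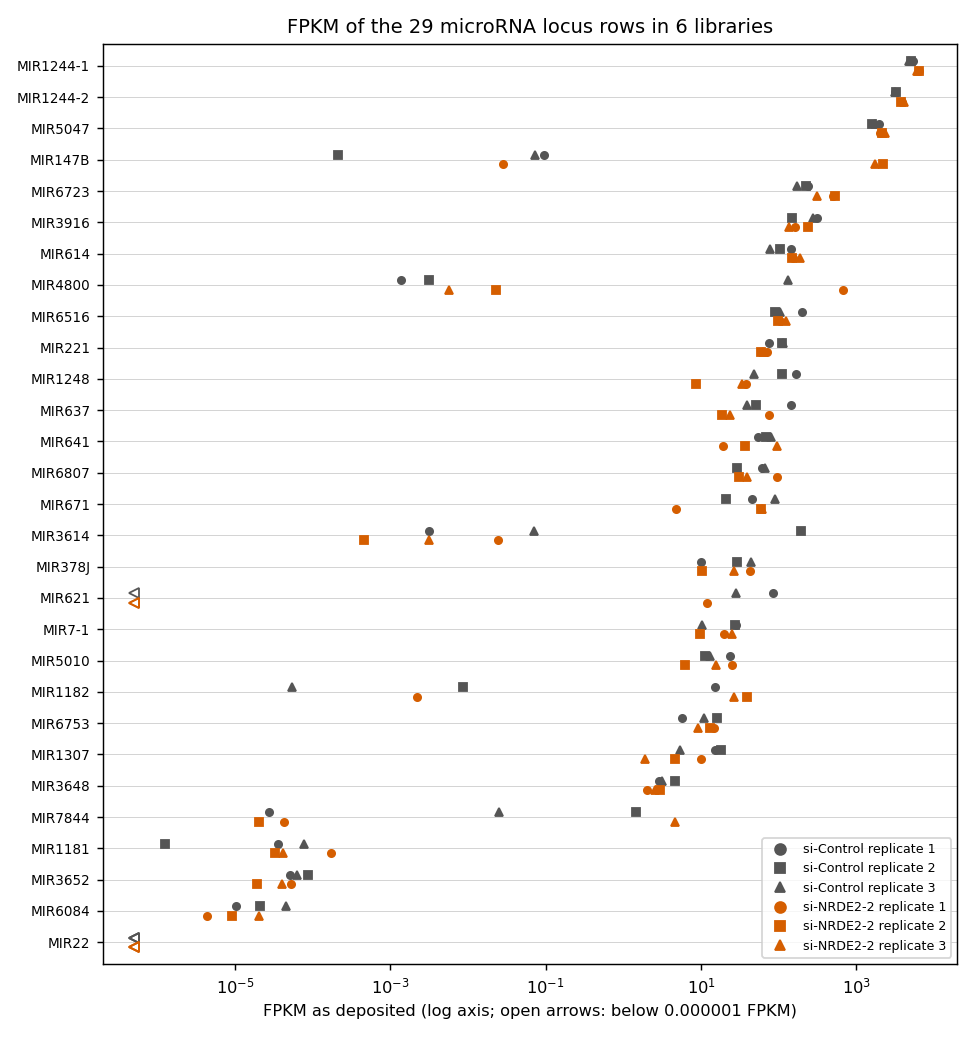
FPKM as deposited (log axis) of the 29 microRNA locus rows, 1 line per row and 1 symbol per library, grey for si-Control and orange for si-NRDE2-2. In 19 rows every value is at least 1 FPKM, in 4 rows every value is under 0.01 FPKM, and in 6 rows values of both sizes occur; arrows mark values below the axis.

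Few of the members were called different between the groups. At an adjusted p under 0.05 in limma, 5 of 29 members (17.2%) were called, 4 higher and 1 lower with si-NRDE2-2, against 33.1% of all 16144 rows tested (16.2% higher and 16.9% lower). The pseudocount holds the 4 members with every value under 0.01 FPKM near no change, so they could not be called. The groups did not overlap in 7 members (24.1%), against 46.1% of all rows. The members' median log2 fold change was -0.00042, beside -0.01 for all rows. Their median absolute change was 0.43 against 0.15, and their median SD within a group 0.76 against 0.08 on the log2 scale. The first median is the value of MIR3652, at most 8.6e-05 FPKM in every library. The median absolute change is that of MIR7844, under 1 fragment in every library. With only rows of at least 1 FPKM in at least 3 libraries, the median change was -0.18 over 21 members and -0.02 over 11948 rows. Of these 21 members, 4 were called higher and 1 lower, beside 5081 of the 11948 rows called. The called members were MIR1244-1, MIR1244-2, MIR5047 and MIR6723, which rose, and MIR221, which fell. The other non-overlapping rows were MIR614 and MIR1248.

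MIR1244-1 had the highest FPKM of all members. Its 85-base hairpin lies wholly in UTR sequence of PTMA, on the same strand; PTMA encodes prothymosin alpha, a small acidic protein of the nucleus. The row was at 5341, 5097 and 4737 FPKM in si-Control and at 6347, 6430 and 6084 FPKM with si-NRDE2-2. Every si-NRDE2-2 library was above every si-Control library. The mean went from 5059 ± 304 to 6287 ± 180 FPKM (SD, n = 3 per group), a ratio of 1.24 (log2 fold change 0.31 ± 0.07, limma adjusted p = 0.0061).

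MIR1244-2 showed the same pattern at a lower level, with 3103, 3240 and 3133 FPKM in si-Control and 3914, 3761 and 4160 FPKM in si-NRDE2-2. The groups were again apart (3159 ± 71.9 against 3945 ± 201 FPKM, log2 fold change 0.32 ± 0.06, limma adjusted p = 0.0036). Both rows rose in all 15 alternative fits, with limma adjusted p between 0.0012 and 0.0442 for MIR1244-1 and between 0.0020 and 0.0304 for MIR1244-2. They are not independent measurements. The hairpins are identical in 85 of 85 letters, also with that of MIR1244-3, and apart from the microRNA entries those letters occur in the spliced transcripts of 1 gene, PTMA. MIR1244-2 itself has no gene on its strand, lies opposite an intron of DTWD2, and is close to the PTMA pseudogene PTMAP2. How reads that match both loci and PTMA were divided is not stated in the sources at hand. In si-Control the values correspond to 91.4, 91.3 and 74.4 fragments for MIR1244-1 and 53.1, 58.0 and 49.2 for MIR1244-2, none of them whole. In si-NRDE2-2 they correspond to 103, 107 and 79.3 fragments for MIR1244-1 and 63.5, 62.3 and 54.2 for MIR1244-2. The quotient of both rows ran from 1.51 to 1.72 in si-Control and from 1.46 to 1.71 in si-NRDE2-2, so that it overlapped between the groups.

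The PTMA row did not pass the test. It was at 385, 391 and 409 FPKM in si-Control and 387, 417 and 421 FPKM in si-NRDE2-2, with overlapping groups (log2 fold change 0.05 ± 0.05, limma adjusted p = 0.531). The MIR1244-1 row stood at 13.9, 13.04 and 11.6 times the PTMA row in si-Control and at 16.4, 15.4 and 14.4 times with si-NRDE2-2. This quotient was higher in all 3 si-NRDE2-2 libraries, by 0.27 on the log2 scale (exact permutation test, two-sided, p = 0.1, the smallest p that 3 against 3 libraries can give). The hairpin row and the row of the gene whose exon holds its letters therefore differ in call.

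MIR5047 lies in an exon of a non-coding transcript of DDX5, the gene of an RNA helicase that works with the DROSHA complex. It had 117, 99 and 94 fragments in si-Control and 113, 123 and 107 in si-NRDE2-2, more than any other row with whole values. In FPKM these were 1972, 1594 and 1727 against 2011, 2142 and 2370, which did not overlap (1764 ± 192 against 2174 ± 182 FPKM). The log2 fold change was 0.30 ± 0.09 (limma adjusted p = 0.0283). Counting alone gives a ratio of 1.23 with a 95% interval of 1.05 to 1.43 for the sums of 310 and 343 fragments, scaled by depth; such intervals, here and below, cover counting error only.

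The DDX5 row itself rose from 146 ± 2.60 to 182 ± 3.99 FPKM (log2 fold change 0.32 ± 0.04, limma adjusted p = 4.5e-04). The difference of the log2 quotient of MIR5047 to DDX5 between the groups was -0.02 (exact permutation p = 1.0), with an SD of 0.13 in si-Control and 0.09 in si-NRDE2-2. The MIR5047 call was lost in 8 of the 15 alternatives. Without single libraries its limma adjusted p was 0.120 (si-Control replicate 2), 0.106 (si-Control replicate 3), 0.0781 (si-NRDE2-2 replicate 2) and 0.113 (si-NRDE2-2 replicate 3). It was 0.0521 with no filter, 0.0653 with no variance trend, 0.0954 with a variance prior of its own for small RNA rows and 0.0615 with the replicate number as a block.

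MIR221 was the member that fell. With miR-222 it comes from a shared primary transcript and is known for repressing the cell cycle inhibitor CDKN1B in breast cancer cells. The hairpin lies in an intron of the long non-coding RNA MIR222HG, for which no row was matched. The row held 8, 12 and 11 fragments in si-Control and 7, 6 and 5 in si-NRDE2-2, or 75.9, 109 and 114 against 70.1, 58.8 and 62.3 FPKM. The highest si-NRDE2-2 value lay just under the lowest si-Control value. The mean went from 99.4 ± 20.6 to 63.7 ± 5.78 FPKM (log2 fold change -0.62 ± 0.17, limma adjusted p = 0.0327).

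The counting interval of that ratio, 0.643 (0.339 to 1.19), from 31 and 18 fragments, includes 1. The call was lost on leaving out si-Control replicate 2 or 3 (limma adjusted p = 0.0828 and 0.0947), without si-NRDE2-2 replicate 2 or 3 (0.0959 and 0.115), with a separate prior (0.117) and with the replicate block (0.0802). The neighbouring MIR222 row, read from the same strand, had 1 fragment in si-Control replicate 1, 1 in si-NRDE2-2 replicate 1 and 0 in the other 4 libraries, which is too few for any comparison.

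MIR6723 had the largest log2 change among the called members. It held 6, 6 and 4 fragments in si-Control and 12, 13 and 6 in si-NRDE2-2, or 235, 224 and 171 against 496, 526 and 308 FPKM. Scaled by depth the groups did not overlap, while the raw fragments met at 6. The mean went from 210 ± 34.4 to 443 ± 118 FPKM (log2 fold change 1.05 ± 0.25, limma adjusted p = 0.0311), and the counting ratio was 2.15 (1.14 to 4.20). The hairpin lies wholly in an exon of MTCO1P12, a nuclear pseudogene copy of a mitochondrial gene, on the opposite strand, and in an intron of AL669831.3 on its own strand. The table has 0 rows whose name starts with MT-, so fragments of the mitochondrial original cannot be set beside it, and the row is uncertain for that reason. The call was lost in 5 of the fits, each leaving out a single library. The limma adjusted p was 0.0844, 0.0749 and 0.105 when the library dropped was si-Control replicate 1, 2 or 3, in that order, and 0.0663 or 0.0680 when it was replicate 1 or 2 of si-NRDE2-2.

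**Figure D3:**
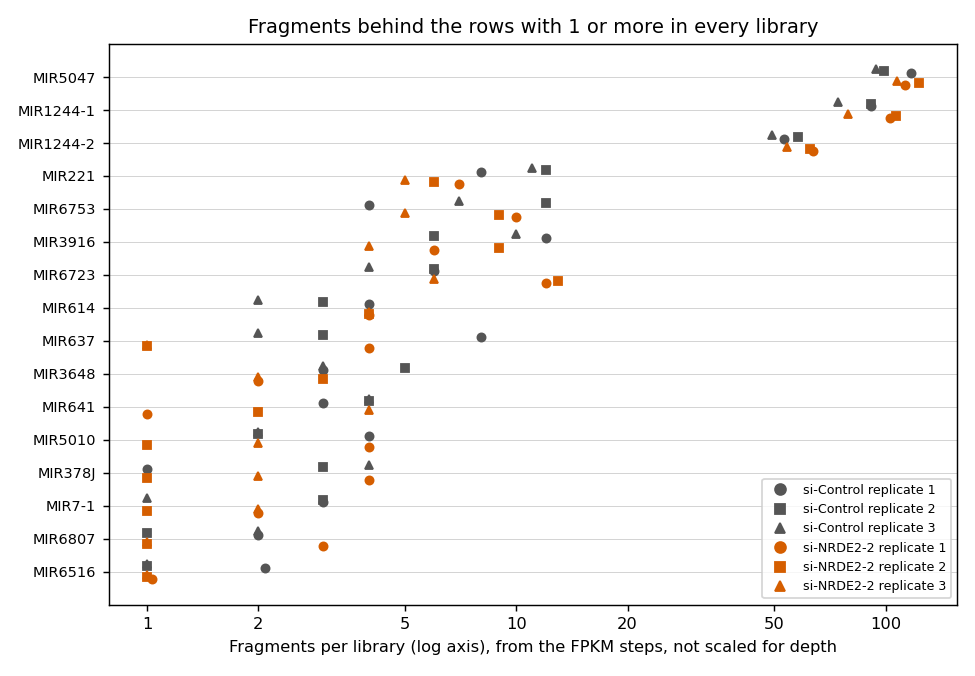
Fragments per library (log axis), recovered from the FPKM steps and not scaled for depth, for the 16 members with at least 1 fragment in every library; symbols mark replicates, grey si-Control and orange si-NRDE2-2. MIR5047 and the MIR1244 rows stand above 49 fragments in every library, all other rows at or below 13.

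MIR614 lies in UTR sequence of GPRC5A, an orphan receptor gene induced by retinoic acid. It had 4, 3 and 2 fragments in si-Control and 4, 4 and 4 in si-NRDE2-2, or 143, 103 and 78.0 against 151, 148 and 188 FPKM. The groups were apart by a narrow margin in FPKM, while the raw fragments met at 4. The row did not pass (log2 fold change 0.62 ± 0.25, limma adjusted p = 0.129, counting ratio 1.48, 0.571 to 3.97). It was called, at 0.0151, when si-Control replicate 1 was left out. GPRC5A was flat (-0.04 ± 0.06), and the quotient to it was higher in every si-NRDE2-2 library, by 0.66 (exact permutation p = 0.1).

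MIR1248 lies in EIF4A2, a translation initiation helicase gene. The snoRNAs SNORA81 and SNORA63, among others, are annotated within 3000 bases of its hairpin. The MIR1248 row was at 166, 109 and 48.3 FPKM in si-Control and 37.4, 8.66 and 33.4 in si-NRDE2-2. All si-NRDE2-2 values were lower, but the spread was wide and the row did not pass (-2.10 ± 0.84, limma adjusted p = 0.139). SNORA81 was at 13.01, 12.9 and 18.97 against 19.2, 19.1 and 19.7 FPKM. SNORA63 was at 186, 137 and 105 against 155, 137 and 109 FPKM, and EIF4A2 changed by -0.05 ± 0.05 without passing. The MIR1248 values came to between 3.73 and 13.96 fragments in si-Control and between 0.705 and 2.98 in si-NRDE2-2, with a step read off between neighbouring lengths, and reads of overlapping small RNAs may be divided among these rows.

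MIR147B varied more than any of these. Its hairpin lies in UTR sequence of C15orf48, which encodes a small mitochondrial protein. The row was at 0.0957, 0.00021 and 0.0724 FPKM in si-Control, at 0.0279 FPKM in si-NRDE2-2 replicate 1, and at 2232 and 1751 FPKM in its other two replicates. Replicate 1 thus sat with the si-Control libraries and apart from its own group. The high values equal 19.8 and 12.2 fragments. The change of 9.05 ± 4.57 did not pass (limma adjusted p = 0.221), and without si-NRDE2-2 replicate 1 it was 13.69 with an adjusted p of 1.4e-04. C15orf48 was at 101, 87.6 and 122 FPKM in si-Control and 121, 109 and 122 FPKM in si-NRDE2-2, in none of whose libraries it was low (0.19 ± 0.11, limma adjusted p = 0.218).

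MIR4800, in UTR sequence of the MAX-partner gene MXD4, behaved alike in other libraries. It was at 130 FPKM in si-Control replicate 3, at 680 FPKM in si-NRDE2-2 replicate 1 and at or below 0.0231 FPKM in the other 4. MXD4 rose from 9.14 ± 0.274 to 13.4 ± 0.404 FPKM (log2 fold change 0.54 ± 0.05, limma adjusted p = 5.0e-05). MIR3614, in UTR sequence of the ubiquitin ligase gene TRIM25, was at 193 FPKM in si-Control replicate 2 and at or below 0.0715 FPKM elsewhere, whereas TRIM25 fell from 43.6 ± 1.496 to 37.8 ± 0.337 FPKM (-0.20 ± 0.04, limma adjusted p = 0.0046). MIR621, with no gene on its strand, was at 84.5 FPKM in si-Control replicate 1, 28.3 FPKM in replicate 3 and 11.8 FPKM in si-NRDE2-2 replicate 1. MIR1182, across UTR and coding sequence of FAM89A, was at 14.996 FPKM in si-Control replicate 1, at 39.2 FPKM in si-NRDE2-2 replicate 2 and at 26.9 FPKM in replicate 3. In the remaining libraries both rows were below 0.01 FPKM. Values that appear in some libraries of a group and vanish in the others were thus spread over both groups and over every replicate number.

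MIR22 is the clearest case of a row that meets the rule with no fragment behind it. Its microRNA restrains growth in several cancers and is cut from an exon of the non-coding RNA MIR22HG. The row's values ran from 3.2e-273 to 2.3e-73 FPKM, all far below 1 fragment. MIR22HG, in contrast, was at 11.5, 11.9 and 11.5 FPKM in si-Control and 16.5, 15.002 and 15.3 FPKM in si-NRDE2-2, groups that did not overlap, and rose by 0.42 ± 0.05 (limma adjusted p = 2.6e-04). MIR6084, in coding sequence of the mitochondrial kinase gene PINK1, and MIR1181, across UTR and coding sequence of the HSP90 co-chaperone gene CDC37, were likewise below 0.001 FPKM in every library. PINK1 rose by 0.34 ± 0.05 (limma adjusted p = 0.0015) and CDC37 went from 157 ± 5.83 to 113 ± 3.82 FPKM (-0.48 ± 0.05, limma adjusted p = 9.5e-05). MIR7844, in UTR sequence of TMCC3, stood for less than 1 fragment even at its highest, 1.45 FPKM in si-Control replicate 2 and 4.64 FPKM in si-NRDE2-2 replicate 3, while TMCC3 rose by 0.30 ± 0.06 (limma adjusted p = 0.0039). MIR3652, in the chaperone gene HSP90B1, had values between 1.9e-05 and 8.6e-05 FPKM although its host averaged 820 FPKM.

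The remaining members of high FPKM rested on few fragments and did not pass. MIR3916, in an exon of the pseudogene transcript AL390728.4, had 12, 6 and 10 fragments in si-Control and 6, 9 and 4 in si-NRDE2-2, or 309, 147 and 280 against 163, 239 and 135 FPKM. Its groups overlapped (log2 fold change -0.43 ± 0.40, limma adjusted p = 0.487). MIR637, in a retained intron transcript of the kinase gene DAPK3, had 8, 3 and 2 fragments against 4, 1 and 1 (-1.04 ± 0.83, limma adjusted p = 0.419). MIR641, in an intron of the kinase gene AKT2, had 3, 4 and 4 against 1, 2 and 4 (-0.71 ± 0.67, limma adjusted p = 0.498). These groups overlapped as well, and AKT2 fell by 0.15 ± 0.05 (limma adjusted p = 0.0326).

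MIR6807, in an intron of the corepressor gene TRIM28, had 5 fragments in each group. MIR6516, in an exon of the non-coding RNA SNHG20, held about 1 fragment in each library except si-Control replicate 1, with 2.08, so its 198 FPKM there and 90.8 to 125 FPKM elsewhere differ by about a fragment. MIR671, in coding sequence of CHPF2, ran from 20.9 to 90.6 FPKM in si-Control and from 4.71 to 60.2 FPKM in si-NRDE2-2. MIR1307, in UTR sequence of the ATP synthase subunit gene USMG5, was at 15.2, 18.3 and 5.36 FPKM in si-Control and 9.996, 4.58 and 1.88 FPKM in si-NRDE2-2, with overlapping groups (-1.35 ± 0.85, limma adjusted p = 0.315). MIR3648, with a step fitted to its own values, had 3, 5 and 3 fragments against 2, 3 and 2. Its unadjusted limma p under 0.05 did not hold after adjustment (-0.47 ± 0.19, limma adjusted p = 0.105). MIR7-1, in UTR sequence of HNRNPK and 1 source of the widely studied miR-7, had 7 fragments in si-Control and 5 in si-NRDE2-2. The intronic MIR6753, MIR5010 and MIR378J had 23 and 24, 8 and 7, and 8 and 7 fragments in si-Control and si-NRDE2-2, with counting ratios of 1.16 (0.625 to 2.14) for the first and 0.969 (0.299 to 3.06) for both others. These intervals are wide enough to hold a change of over 2-fold, so a difference was not detectable at this depth rather than shown to be absent.

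Set beside their hosts, the members mostly gave no separate answer. Exactly 1 same-strand host row above 0 in all 6 libraries was found for 22 members. MIR6516, with a row each for SNHG20 and SEC14L1, was left out of this comparison. Of the 22, 10 had at least 1 fragment in every library. In 8 of the 10 the member had the same call as its host, but only MIR5047 and DDX5 were both called. In the others neither row was called (MIR378J, MIR5010, MIR614, MIR637, MIR6753, MIR6807 and MIR7-1). These members rested on few fragments, so the shared lack of a call says little about agreement. The exceptions were MIR1244-1, called where PTMA was not, and MIR641, not called where AKT2 was. The quotient of member to host did not overlap between the groups in 2 of the 10, those of MIR1244-1 and MIR614. In plain FPKM the groups did not overlap in 46.1% of all rows, and no such share was computed for quotients. No quotient could reach p below 0.1 in the exact permutation test. Over all 22 host rows, 5 rose and 3 fell, a share close to the 33.1% called among all rows.

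**Figure D4:**
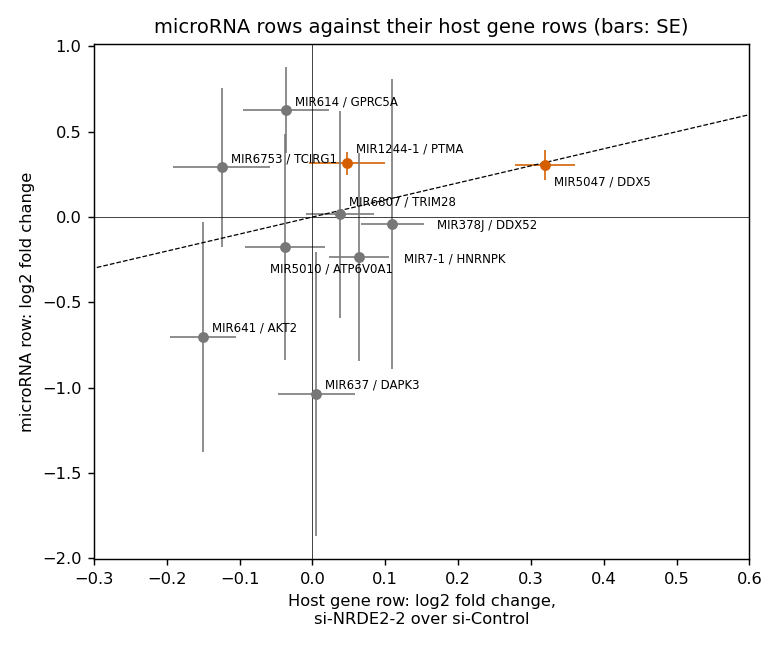
log2 fold change (si-NRDE2-2 over si-Control) of 10 microRNA rows with at least 1 fragment in every library against that of their host gene rows, with SE bars; orange marks called microRNA rows and the dashed line equal change. MIR5047 lies on the line with DDX5 at 0.32, MIR1244-1 lies above it at 0.31 with PTMA at 0.05, and the other 8 rows have wide error bars.

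The rows just outside the rule looked like those inside it. The 5 of highest mean among 12 rows above 0 in 5 of 6 libraries were MIR4737, MIR939, MIR25, MIR663A and MIR922, with means of 182, 142, 96.6, 72.4 and 62.0 FPKM. MIR25, of a cluster inside the replication gene MCM7, had 1, 0 and 1 fragments in si-Control and 1, 3 and 2 in si-NRDE2-2. MIR939 had 2, 2 and 1 against 3, 2 and 0, and MIR663A 3, 2 and 5 against 4, 1 and 0. Just inside, MIR6807 passed with 1 to 3 fragments in every library. MIR210, a hypoxia-induced microRNA, missed the rule by si-Control replicate 1 (row chosen after its values were seen). It had 0, 2 and 2 fragments in si-Control and 6, 8 and 4 in si-NRDE2-2, or 0, 18.1 and 20.7 against 60.1, 78.4 and 49.8 FPKM, and the groups did not overlap. The row of its host transcript MIR210HG rose from 4.73 ± 0.0736 to 6.59 ± 0.0742 FPKM (log2 fold change 0.47 ± 0.05, limma adjusted p = 1.5e-04).

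Some of the longer transcripts that carry microRNAs changed. Of 26 rows named as microRNA host genes, 14 were above 0 in all 6 libraries, and 5 of these rose and 1 fell, against 33.1% of all rows called; their median log2 change was 0.06. Besides MIR22HG and MIR210HG, MIR4435-1HG went from 139 ± 11.0 to 162 ± 6.55 FPKM (0.23 ± 0.06, limma adjusted p = 0.0182), and MIR100HG, the host of MIR100 and a let-7 hairpin, from 34.1 ± 1.28 to 37.8 ± 0.819 FPKM (0.15 ± 0.04, limma adjusted p = 0.0258). MIR137HG also rose, at a level of at most 0.144 FPKM. MIR503HG went the other way, from 14.5 ± 0.69998 to 11.3 ± 1.502 FPKM (-0.37 ± 0.09, limma adjusted p = 0.0115). Both MIR17HG, of the miR-17-92 cluster (-0.31 ± 0.14, limma adjusted p = 0.132), and MIRLET7BHG (-0.19 ± 0.16) failed the test. Without si-Control replicate 2, 2 of the 14 rows rose, and without si-NRDE2-2 replicate 1, 3 did.

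Among the genes of microRNA processing and action, 23 of 24 listed were tested, and 5 rose and 3 fell (median log2 change 0.01). This share is close to the 33.1% called among all rows, and 39.1% of the list against 43.1% of all rows had an unadjusted p under 0.05, so the list does not stand out from the table. DROSHA (-0.04 ± 0.05), DGCR8 (0.02 ± 0.06) and DICER1 (-0.01 ± 0.09) did not pass. DDX5 and its paralogue DDX17 (0.18 ± 0.04), AGO2, which cleaves targets (0.27 ± 0.09), and the Argonaute partners TNRC6A (0.20 ± 0.07) and TNRC6C (0.30 ± 0.09) rose. AGO2 (limma adjusted p = 0.0484) and TNRC6A (0.0423) passed narrowly, and the AGO2 groups overlapped. The helicase MOV10 (-1.13 ± 0.07), the exporter XPO5 (-0.30 ± 0.04) and the uridyltransferase ZCCHC11 (-0.22 ± 0.06) fell. In fits without replicate 2 or replicate 3 of either group, 2 genes of the list rose.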

How the data were processed

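RNA-seq was done on 3 si-Control and 3 si-NRDE2-2 samples with TruSeq Stranded mRNA libraries, per the labels' protocols. The authors deposited 1 table of FPKM values per gene and library. The submitters' processing notes name DESeq2 1.10.1, STAR 2.5.1b and hg19, without saying what each was used for; the program behind the FPKM values, its annotation and its strand setting are not given in the sources used here. Groups and replicate numbers came from the sample titles. Another 4 columns were not used.

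Rows above 0 in all 6 libraries (16144) were compared between the groups as log2(FPKM + 0.1) in limma 3.58.1 (R 4.3.3). The prior variance was trended and robust, p-values were two-sided and adjusted by Benjamini-Hochberg, and an adjusted p under 0.05 was called. Log2 fold changes use this pseudocount, understate changes of low rows, and carry the SE. The fit was tested on simulated data. Values were not rescaled; alternatives included other pseudocounts, filters and priors, median-ratio scaling, a replicate block and leaving out each library.

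Fragments were recovered from the FPKM steps of hairpins of equal length, within 0.02, with exact 95% counting intervals for ratios of whole-number sums. For MIR671, MIR1248, MIR1307, MIR3614, MIR7844 and MIR3652 the step was read off between neighbouring lengths. For MIR3648, which has no hairpin entry, it was taken from the row's own values. Absolute depth is not stated; relative depth came from the same steps. Hairpins were placed by symbol in GENCODE release 29 (GRCh38), so no table coordinates are given. Sequences are from RefSeq.

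Named rows were the MIR1244 rows, NRDE2, the 15 members of highest mean FPKM, called members with groups apart (up to 10 each way), well-known microRNAs, the 5 highest rows above 0 in 5 libraries, and their hosts; further members and host rows named in the text were chosen after their values were seen. The members and lists were chosen with earlier results of these data known.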

Additional observations from a re-analysis of the deposited data

How the results depend on the processing

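Of the 5 members called, MIR1244-1 and MIR1244-2 kept their call in all 15 alternatives, MIR6723 in 10, MIR221 in 9 and MIR5047 in 7. With single libraries left out, the members called higher ranged from 2 to 4 and those called lower from 0 to 1; with a separate prior for small RNA rows, 0 were called lower. Processing genes called higher came to 3 with no filter and 3 with no variance trend, and host gene rows called higher to 3 with no variance trend. With libraries left out, processing genes called higher ranged from 2 to 5, host gene rows higher from 2 to 5 and lower from 1 to 2. The cause was not tested. NRDE2 kept its direction and call in every alternative (log2 fold change -2.08 with a pseudocount of 1).

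Same-numbered samples deviated with correlations of -0.19, 0.091 and -0.29, and differently numbered samples with -0.212 to 0.339. Deviations were taken from the means of groups of 3, so these values cannot decide whether same-numbered samples shared a batch. With the replicate number as a block, 3 members were called higher and 2 lower, MIR3648 (limma adjusted p = 0.0067) and MIR637 (0.0122). The counting intervals of MIR3648 (0.232 to 1.99) and MIR637 (0.159 to 1.44) include 1, and the FPKM groups of both rows overlapped. In the same fit 3 processing genes were called higher, and 4567 rows in all were called, against 5351.

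A row of a few fragments can show only large changes: at 31 and 18 fragments the interval for MIR221 still held no change. A pseudocount of 0.5 fragments for microRNA rows, chosen after seeing the data, left the members called at 4 higher and 1 lower.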
